A study of Arabidopsis thaliana with 9 samples.

Results

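Apical hooks of the Arabidopsis thaliana mutant tmk1 were compared with hooks of the wild type. These were 6 of the 9 libraries of the series, chosen by their labels as the 3 tmk1 and the 3 WT libraries, and all 16383 genes of the deposited table were examined. WT is the accession Col-0 and tmk1 carries the allele tmk1-1, per the labels, which give 45 h as the age and 22 °C in darkness as the growth condition of both groups. The hook, about 2 mm of stem cut off with the cotyledons removed, was pooled from about 50 seedlings per sample, and no treatment is named. The third genotype, the double mutant iaa32iaa34, was grown in the same way and is used here only for values set beside a few genes.

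The apical hook is the bend that a seedling keeps below its cotyledons while it pushes through soil in darkness. Auxin accumulates on the inner side of the bend and holds back cell elongation there, and ethylene and gibberellin help to keep the hook closed. TMK1 encodes a leucine-rich repeat kinase that sits in the plasma membrane and takes part in auxin responses. In the hook a piece cleaved from it is known to enter the nucleus and to act on IAA32 and IAA34, Aux/IAA proteins without the sequence through which auxin has typical members destroyed. The series concerns auxin signalling through TMK1, and the comparison asks which transcripts of the hook differ when the kinase is lacking.

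Values are CPM, read counts scaled to the library total, which depend on transcript length and are compared only between libraries of 1 gene. A gene is said to have risen or fallen where limma gave it a Benjamini-Hochberg adjusted p under 0.05 over all 16383 genes. Gene lists were chosen with earlier results of these data known, so their shares beside those of all genes are descriptions and no test. Fold changes are differences in log2(CPM + 1), tmk1 minus WT, with their standard errors (SE), and they understate the change of low genes. In pooled hooks fewer cells of a type and less RNA per cell cannot be told apart. Library totals were 10077093 to 13601488 reads, so that 3 reads, the floor used here, were worth 0.221 to 0.298 CPM. Libraries correlated across genes at r = 0.967 to 0.983 within WT, 0.965 to 0.988 within tmk1 and 0.919 to 0.978 between the groups, which describes the libraries only. On the first principal component, with 56.1% of the variance, WT lay at -11.3, -17.1 and -51.1 and tmk1 at 44.7, 6.9 and 27.8, so the groups were separate and WT replicate 3 and tmk1 replicate 1 lay farthest out.

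TMK1 itself (AT1G66150) was examined first. It stood at 387, 468 and 469 CPM in the WT libraries and at 45.4, 29.0 and 26.8 CPM in tmk1. All 3 tmk1 libraries thus held far less TMK1 transcript than any WT library, though some reads remained. TMK1 fell by 3.70 on the log2 scale (SE 0.20; limma, adjusted p = 1.94e-04) and passed under each of the 15 alternative settings tried. In iaa32iaa34 hooks it was at 463 to 514 CPM. Other leucine-rich repeat kinases of the TMK family that could be measured were AT2G01820, at 186, 183 and 194 CPM in WT and 174, 187 and 191 in tmk1, and AT3G23750, at 219.6, 297 and 239 CPM and 245, 267 and 251. Their groups overlapped, and their log2 fold changes of -0.03 and 0.02 (SE 0.12 and 0.15) did not pass (limma, adjusted p = 0.915 and 0.942).

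Over all genes, 620 passed the threshold, 3.78% of those tested. Of these 338 rose (2.06%) and 282 fell (1.72%), and 222 of the rises and 106 of the falls were of at least 1 on the log2 scale. Groups did not overlap for any of the 620 called genes, as for 4985 genes in all (30.4%), and 3905 genes had an unadjusted p under 0.05. The median log2 fold change over all genes was -0.06, with 9518 genes lower and 6865 higher. Counts of list members lower or higher given below are to be read beside these. After median-of-ratios scaling the median was 0, with 8253 genes lower and 8130 higher. Under that scaling 739 genes passed, of which 67.9% were higher, against 54.5% of the 620. A block for the replicate number raised the count to 1422 genes (8.68%; 4.74% higher and 3.94% lower), with all 620 among them, while a fit of all 9 libraries called 52 (0.317%), all of them also among the 620. The count rested on single libraries, with 25, 437 and 89 genes without WT replicates 1, 2 and 3, and 14, 1041 and 14 without tmk1 replicates 1, 2 and 3. Genes that passed whichever library was left out numbered 13 (0.0794%; 0.0305% higher and 0.0488% lower), so every other gene named below lost its call without at least 1 library, while no gene past the threshold and named by the rule changed direction in any of the 15 alternatives.

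**Figure D1:**
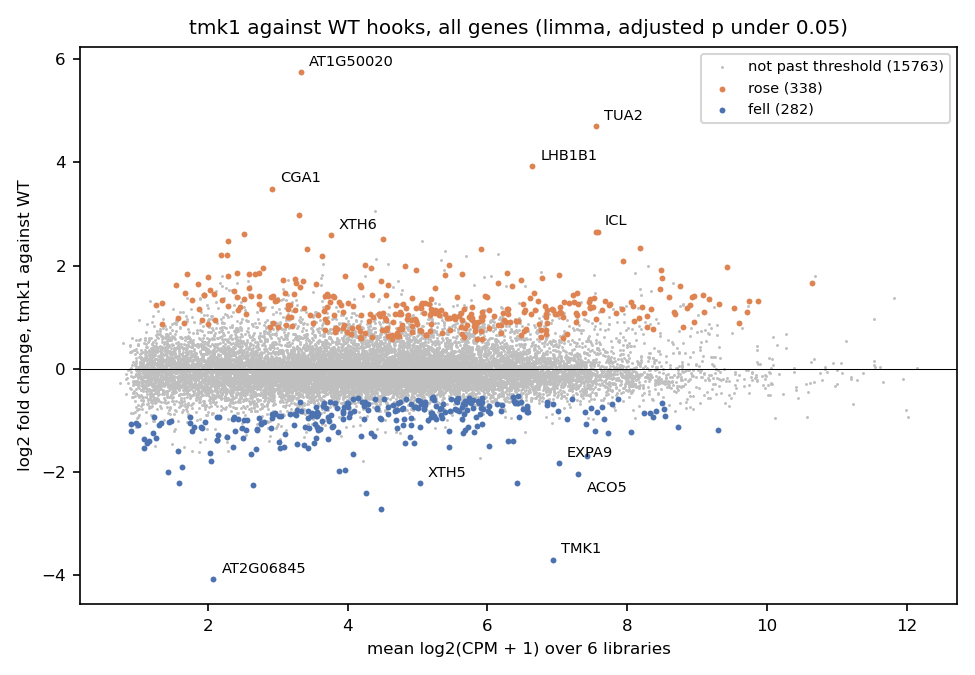
Log2 fold change of tmk1 against WT (vertical axis) by the mean log2(CPM + 1) over the 6 libraries (horizontal axis), 1 point per gene, with the 338 genes that rose and the 282 that fell in colour. TUA2 and AT1G50020 lie at the top, at 4.71 and 5.75, and TMK1 and AT2G06845 at the bottom, at -3.70 and -4.07.

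The 13 genes that kept their call without any 1 library were 5 that rose and 8 that fell. Apart from TMK1, the rises were those of TUA2, AT1G50020, XTH6, CGA1 and AT5G57785, and the falls those of AT2G06845, AT5G65660, AT3G54830, AT1G17300, XTH5, OLEO3 and SULTR3;1. TUA2 (AT1G50010), an alpha-tubulin gene, stood at 35.1, 31.9 and 40.5 CPM in WT and at 845, 1052 and 981 CPM in tmk1. The locus next to it, AT1G50020, which the annotation names as a tubulin alpha chain too, stood at 0, 1.06 and 0.256 CPM and at 73.5, 62.5 and 83.7 CPM. Both were near-silent or low in every WT library and high in every tmk1 library, with log2 fold changes of 4.71 (SE 0.15; limma, adjusted p = 7.39e-06) and 5.75 (SE 0.26; limma, adjusted p = 6.32e-05). The annotation behind the counts is not given, so it is not known whether reads running past TUA2 were counted for AT1G50020, and alpha-tubulin genes are near-identical. In iaa32iaa34 TUA2 was at 952 to 999.9 CPM and AT1G50020 at 37.6 to 82.4 CPM, so these loci stood apart in WT from both mutants, which share the WT libraries as their control. The same held for AT2G06845, annotated as a beta-galactosidase related protein. It was at 17.5, 15.5 and 16.1 CPM in WT, at 0, 0.0992 and 0 CPM in tmk1 and at 0.0857 to 0.0947 CPM in iaa32iaa34. Over the 3 libraries of each group that was 573 reads against 1, a ratio of 576 with an exact 95% interval of 103 to 22772 for counting error alone (fitted log2 fold change -4.07, SE 0.17; limma, adjusted p = 3.31e-05). Libraries of iaa32iaa34 also lay outside the WT range, on the side of tmk1, for XTH5 (10.1 to 21.9 CPM), OLEO3, AT1G17300, AT3G54830, XTH6 and AT5G57785. For TMK1, AT5G65660, SULTR3;1 and CGA1 they overlapped WT.

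Among the other genes of this kind, CGA1 (AT4G26150), a GATA transcription factor of chloroplast development that cytokinin and light induce, was at 1.09, 2.27 and 0.683 CPM in WT and at 30.6, 18.3 and 26.0 CPM in tmk1. The groups lay far apart, and CGA1 rose by a log2 fold change of 3.49 (SE 0.28; limma, adjusted p = 0.00205). XTH6 (AT5G65730) and XTH5 (AT5G13870) encode xyloglucan endotransglucosylases, enzymes that cut and rejoin the xyloglucan of the cell wall. XTH6 was at 4.82, 5.36 and 3.5 CPM in WT and at 36.9, 27.1 and 33.6 in tmk1, while XTH5 was at 67.5, 66.5 and 75.5 CPM and at 11.9, 20.2 and 11.6. The one was low in WT and high in tmk1 and the other the reverse, at 2.60 (SE 0.19; limma, adjusted p = 0.00104) and -2.23 (SE 0.21; limma, adjusted p = 0.00502). In the 9-library fit XTH6 did not pass (adjusted p = 0.0697). AT3G54830, an amino acid transporter family member, was at 181, 189 and 183 CPM and fell to 40.2, 33.1 and 44.4 CPM. AT5G65660, a hydroxyproline-rich glycoprotein family member, was at 40.3, 43.7 and 45.3 CPM and fell to 6.61, 8.63 and 6.84 CPM. Both had replicates close together in each group, with log2 fold changes of -2.21 (SE 0.14) and -2.41 (SE 0.15; limma, adjusted p = 3.40e-04 for each). OLEO3, an oleosin that coats oil bodies, was at 74.2, 65.7 and 79.2 CPM in WT and 24.9, 23.8 and 26.0 in tmk1 (log2 fold change -1.51, SE 0.12; limma, adjusted p = 0.00205). SULTR3;1, a sulfate transporter, was at 74.0, 74.4 and 81.0 CPM and 28.9, 32.0 and 34.8 (log2 fold change -1.24, SE 0.12; limma, adjusted p = 0.00717). It was the only member of 15 measured sulfate uptake and assimilation genes past the threshold, where 3.78% of all genes passed.

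**Figure D2:**
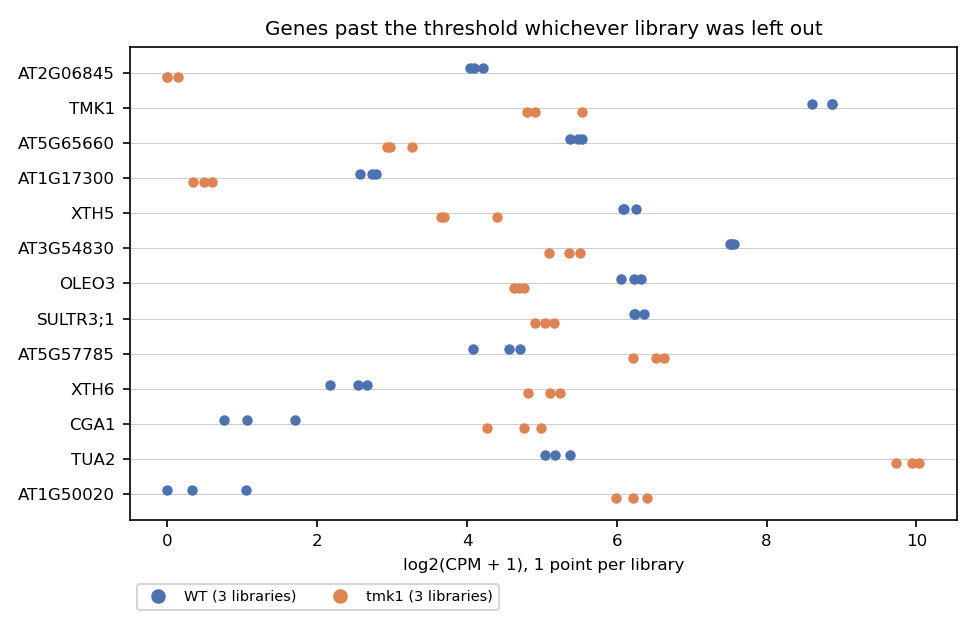
Level of the 13 genes that passed whichever of the 6 libraries was left out, as log2(CPM + 1) (horizontal axis), 1 point per library, with WT and tmk1 in different colours. No gene has a tmk1 point within the range of its WT points, and the widest gaps are those of AT1G50020 and TUA2.

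Genes of the photosynthetic apparatus were the list with the most calls, all of them upward. They encode the pigment proteins, photosystem subunits, electron carriers and carbon-fixing enzymes of chloroplasts, are known to be kept low in darkness, and serve here also as markers of cotyledon and greening tissue. Of 49 measured members 49 were higher in tmk1, the median log2 fold change being 1.23, and 40 rose (81.6%, against 2.06% of all genes). Their summed level was 19770.5, 18467 and 10822 CPM in WT and 43652, 34445 and 37722 CPM in tmk1. The groups were thus separate, with WT replicate 3 the lowest, and 48 of the 49 genes did not overlap between groups, against 11.5% of all genes in this direction. The calls, unlike the direction, rested on which libraries were in the fit. Of the 49 genes 1, 34 and 10 passed without WT replicates 1, 2 and 3, and 0, 39 and 0 without tmk1 replicates 1, 2 and 3, while the median stayed between 0.97 and 1.36 and all 49 stayed higher. In the 9-library fit 0 of the 49 passed, and with the replicate block 46 rose, where 4.74% of all genes did (limma).

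Within the photosynthetic apparatus the light-harvesting proteins, which bind chlorophyll and pass light energy to the photosystems, had the highest median of the 5 roles. Of 16 such genes 14 rose, with a median of 1.52 and a range of 1.09 to 3.93. LHB1B1 (AT2G34430) was at 55.7, 16.0 and 16.4 CPM in WT and at 671, 282 and 309.7 CPM in tmk1. CAB2 (AT1G29920) was at 71.7, 117 and 51.6 CPM and at 433, 657 and 393 CPM. Every tmk1 library lay far above every WT library for both, at log2 fold changes of 3.93 (SE 0.49; limma, adjusted p = 0.0171, and 0.0617 in the 9-library fit) and 2.65 (SE 0.30; limma, adjusted p = 0.0129, and 0.114). Reads of near-identical copies cannot be assigned with certainty, and the tandem copies CAB1 and CAB3 did not pass (limma, adjusted p = 0.142 and 0.0637; with the block 0.0682 and 0.011). LHCB2.1, an antenna gene of photosystem II, was at 124, 166 and 79.8 CPM in WT and at 485, 614 and 440 CPM in tmk1, and LHCA1, of the antenna of photosystem I, at 201, 251 and 149.9 CPM and at 636, 842 and 557 CPM. Both rose, by 2.1 (SE 0.26) and 1.76 (SE 0.23) with limma's adjusted p = 0.0171 for each, and their groups did not overlap. In iaa32iaa34 hooks LHB1B1, CAB2, LHCB2.1 and LHCA1 were at 36.7 to 321, 61.6 to 842, 90.4 to 889 and 157 to 1002 CPM. Libraries of that 1 genotype thus reached from the WT range to the tmk1 range or above it. All 10 subunit genes of photosystem I rose, with log2 fold changes of 0.92 to 1.38. Of 8 genes of photosystem II 7 rose, and NPQ4 (PSBS), which is known for the dissipation of excess light energy, did not (log2 fold change 0.86; limma, adjusted p = 0.0619, and 0.0339 with the block). Of 7 genes of electron carriers and the ATP synthase 6 rose, with a median of 1.02. Of 8 carbon fixation genes 3 rose, the Rubisco activase gene RCA and the small subunit genes RBCS3B and RBCS1B, with a median over the 8 of 1.21, and 7 rose with the block. The small subunit gene RBCS1A was at 2742, 2445 and 1391 CPM in WT and 5050.3, 3038 and 4565 CPM in tmk1, which did not pass (limma, adjusted p = 0.132).

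Genes of chlorophyll synthesis and regulators of greening followed the same direction. Of 14 measured chlorophyll genes 13 were higher, with a median of 0.84, and 5 rose (35.7%, against 2.06% of all genes). With the replicate block 10 rose, where 4.74% of all genes did. HEMA1, which makes the first dedicated precursor of chlorophyll and haem, was at 134, 184 and 109 CPM in WT and at 328, 394 and 288 CPM in tmk1. CRD1, a subunit of the cyclase that closes the isocyclic ring of chlorophyll, was at 225, 333 and 179 CPM and at 578, 710.3 and 586 CPM. GUN4, which activates magnesium chelatase, was at 78.6, 124 and 64.9 CPM and at 205, 224 and 211 CPM. In all 3 genes the lowest tmk1 library was well above the highest WT library, and they rose by 1.26 (SE 0.21), 1.38 (SE 0.23) and 1.30 (SE 0.22), with limma's adjusted p = 0.0287, 0.0287 and 0.0301. In iaa32iaa34 hooks HEMA1, CRD1 and GUN4 were at 135 to 434, 235 to 728 and 55 to 278 CPM. Libraries of that 1 genotype thus ran from WT levels or below to above every tmk1 library. The other rises were those of CAO (CH1, AT1G44446), which makes chlorophyll b, by 1.10, and CHLM, a methyltransferase of the pathway, by 1.2 (limma, adjusted p = 0.0316 and 0.0366). The protochlorophyllide oxidoreductases, which need light for their step, did not pass. PORA was at 183, 256 and 82.4 CPM in WT and 239, 208 and 226 in tmk1, PORB at 696, 650.3 and 484 CPM and 524, 618 and 521, and both overlapped between groups (limma, adjusted p = 0.423 and 0.724). PORC was at 27.4, 32 and 22.1 CPM and 36.9, 63.8 and 39.8 CPM, and its groups did not overlap. It was higher by 0.74 (SE 0.23) and rose with the block only (limma, adjusted p = 0.102 and 0.0274). The 5 calls were 0 without WT replicate 1, WT replicate 3, tmk1 replicate 1 or tmk1 replicate 3, while the median remained at 0.64 to 0.99.

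Of 6 measured regulators of greening 6 were higher, with a median of 0.98, and 4 rose (66.7%, against 2.06% of all genes). Besides CGA1 these were the sigma factor genes SIG1 (SIGA), SIG2 and SIG6 (SIGF), whose products direct the plastid RNA polymerase to its promoters. SIG2 was at 36.7, 41.3 and 30.7 CPM in WT and at 62.6, 70.4 and 59.5 CPM in tmk1. The groups were separate, and SIG1, SIG2 and SIG6 rose by 1.15 (SE 0.20), 0.81 (SE 0.14) and 0.96 (SE 0.20), with limma's adjusted p = 0.0324, 0.0327 and 0.0419. GNC, the closest relative of CGA1, was at 49.6, 71.1 and 35.3 CPM and at 122, 72.5 and 118 CPM, where tmk1 replicate 2 came near the WT range (limma, adjusted p = 0.0809). Only CGA1 of the 4 was called when WT replicate 1, WT replicate 3, tmk1 replicate 1 or tmk1 replicate 3 was left out.

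Other markers were set beside these groups, since the tissue taken could differ between samples. Plastid-encoded genes were higher for 87 of 100, with a median of 0.35, but 0 passed (limma). Of them 14 had an unadjusted p under 0.05, a smaller share than the 3905 of 16383 over all genes. With the block 1 rose, where 4.74% of all genes did. The higher level of the list came mostly with WT replicate 3. The mean deviation of that list was 0.13, 0.11 and -0.71 in WT and 0.14, 0.30 and 0.04 in tmk1, and without WT replicate 3 its median was 0.05. Stomatal lineage genes, which mark developing leaf and cotyledon epidermis, were higher for 5 of 5 measured members, with a summed level of 16.4, 15.5 and 12.5 CPM in WT and 26.9, 26.8 and 24.3 CPM in tmk1. None passed (limma, adjusted p = 0.0611 for FAMA, the smallest, and 3 with an unadjusted p under 0.05). With the replicate block FAMA and SPCH, chosen after their values were seen, rose, where 4.74% of all genes did. The shoot meristem genes had 4 measured members, 3 of them lower, at 177, 216 and 186 CPM summed in WT and 149, 220.2 and 168 in tmk1. Endodermis genes varied strongly within both groups, at 177, 301 and 657 CPM in WT and 147, 343 and 271 CPM in tmk1, and their median of -0.38 became 0.39 without WT replicate 3 and 0.28 without tmk1 replicate 1. Phloem genes were higher for 7 of 8, xylem genes lower for 11 of 14 and epidermis genes lower for 5 of 8, with 0 past the threshold in each (limma; 1, 1 and 2 had an unadjusted p under 0.05). With the block the endodermis gene SHR fell, and the epidermis genes LTP1 and CER1 rose and fell. Over all genes 4.74% rose and 3.94% fell with the block. Mitochondrion-encoded genes were lower for 29 of 30, with a summed level of 4050.5, 5063 and 3964 CPM in WT and 1772, 4802 and 1437 CPM in tmk1, so that tmk1 replicates 1 and 3 were low and tmk1 replicate 2 was not. Of these 0 passed (limma; 6 had an unadjusted p under 0.05), and 6 fell without tmk1 replicate 2. Root genes and seed storage genes had no measured member. The part of cotyledon tissue, tissue makeup or plastid stage in the greening result was not tested.

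**Figure D3:**
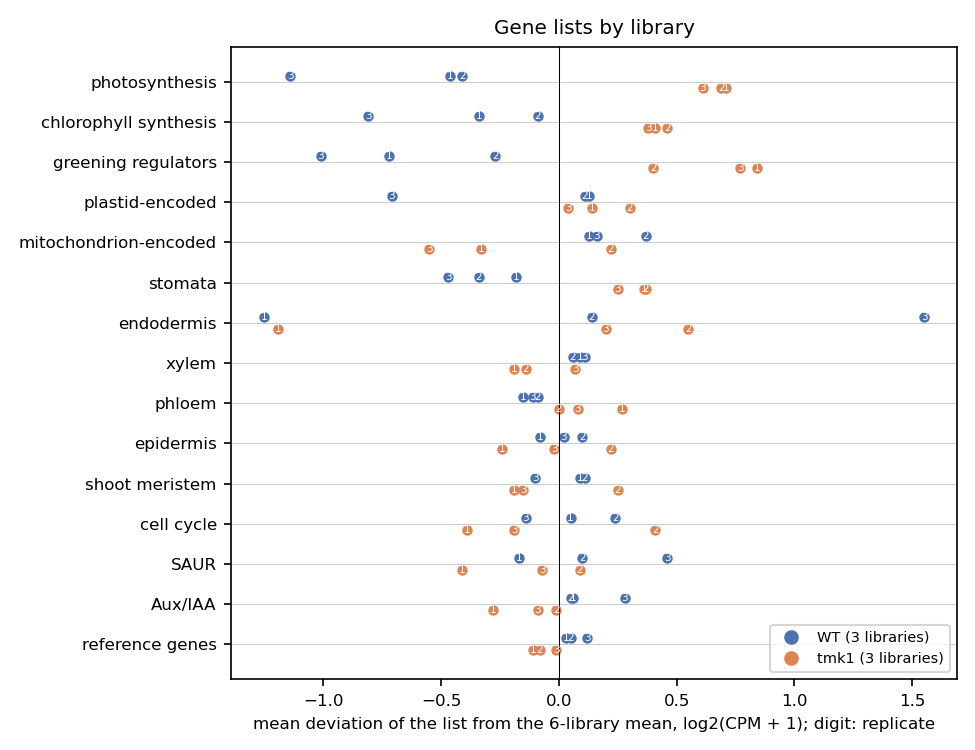
Mean deviation of each gene list from its mean over the 6 libraries, in log2(CPM + 1) (horizontal axis), 1 point per library with its replicate number, WT and tmk1 in different colours. Photosynthesis, chlorophyll, greening regulator and stomata lists separate the groups, whereas the endodermis list spreads over replicates of each group and mitochondrion-encoded genes are low in tmk1 replicates 1 and 3 only.

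Auxin genes were next, since TMK1 acts in auxin signalling. The clearest falls were in auxin synthesis. TAA1 (AT1G70560), the aminotransferase that turns tryptophan into indole-3-pyruvate, was at 83.8, 75.4 and 97.8 CPM in WT and at 27.7, 45.2 and 36.1 CPM in tmk1. YUC3 (AT1G04610), one of the flavin monooxygenases that then make auxin, was at 16.6, 12.9 and 15.9 CPM and at 4.17, 4.37 and 6.10 CPM. All tmk1 libraries were well below all WT libraries, and the genes fell by 1.23 (SE 0.19; limma, adjusted p = 0.0256) and 1.46 (SE 0.18; limma, adjusted p = 0.0171). They were 2 of 6 measured synthesis genes (33.3%, against 1.72% of all genes in this direction). YUC8, YUC6, YUC1 and YUC4 did not pass, at log2 fold changes of -0.34 to 0.15. Neither gene passed without WT replicate 1, tmk1 replicate 1 or tmk1 replicate 3, nor in the 9-library fit (limma, adjusted p = 0.0617 for TAA1 and 0.0876 for YUC3).

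IAA32 (AT2G01200), a noncanonical Aux/IAA gene, was at 55.3, 43.0 and 50.9 CPM in WT and at 22.3, 25.4 and 28.5 CPM in tmk1. The tmk1 libraries were all below the WT libraries, and IAA32 fell by 0.94 (SE 0.15; limma, adjusted p = 0.0256, and 0.0644 in the 9-library fit). It passed in 10 of the 15 alternatives and in 2 of the 6 that leave out a library. IAA30, another noncanonical member, was at 2.11 to 3.18 CPM in WT and 2.13 to 2.68 CPM in tmk1 (limma, adjusted p = 0.848), and IAA34 is not analysed here. Typical Aux/IAA genes, which encode repressors that auxin both induces and destroys, had 21 measured members, 16 of them lower and the median -0.23. None passed (limma; 7 had an unadjusted p under 0.05). IAA1 was closest, at 79.1, 74.6 and 83.5 CPM in WT and 48.1, 55.8 and 57.6 CPM in tmk1 (log2 fold change -0.55, SE 0.12; limma, adjusted p = 0.0503). With the replicate block IAA1 and IAA6 fell (limma, adjusted p = 0.0367 and 0.0299), where 3.94% of all genes did. Auxin response factors, the DNA-binding partners of these repressors, had 0 of 14 past the threshold (limma; 3 with an unadjusted p under 0.05) and a median of -0.06, that of all genes (0.01 after median-of-ratios scaling). The auxin receptor genes TIR1, AFB1, AFB3, AFB4 and AFB5 did not pass, with log2 fold changes of -0.53 for AFB1 to 0.34 for TIR1, and AFB1 passed with the block (limma, adjusted p = 0.0414).

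SAUR genes encode small proteins that auxin induces in elongating tissue. Of 37 measured members 31 were lower, the median being -0.32, and 1 fell (2.70%, near the 1.72% of all genes), SAUR17 (AT4G09530), which is known from the closed hook in darkness. It was at 3.36, 1.95 and 2.05 CPM in WT and 0.174, 0.298 and 0.515 CPM in tmk1, a few reads per tmk1 library (log2 fold change -1.36, SE 0.23; limma, adjusted p = 0.0302). The list's summed level was 513, 669 and 894 CPM in WT and 478, 699 and 611 CPM in tmk1, so the groups overlapped, and its median was -0.09 without WT replicate 3. With the replicate block 3 SAUR genes fell and 2, chosen after their values were seen, SAUR6 and SAUR12, rose, where 3.94% and 4.74% of all genes did. In auxin transport 1 of 21 genes fell (1.72% of all genes did), ABCB4, at 180.4, 189.8 and 172 CPM in WT and 133, 110.3 and 119.5 CPM in tmk1 (log2 fold change -0.58, SE 0.13; limma, adjusted p = 0.0461), and 17 of 21 were lower. With the block 3 transport genes fell and 1 rose, where 3.94% and 4.74% of all genes did. PIN3, the auxin efflux carrier known from the hook, was at 410.2, 496 and 383 CPM and at 423, 475 and 452 CPM (limma, adjusted p = 0.816). AUX1, an influx carrier, was at 251, 217 and 273 CPM and at 153, 175 and 172 CPM (limma, adjusted p = 0.0627; with the block 0.048). Among 7 GH3 genes, whose products join auxin or jasmonate to amino acids, DFL2 (GH3.10) fell by 0.65 (SE 0.13; limma, adjusted p = 0.0375), where 1.72% of all genes fell, and GH3.17 rose with the block only. None of 6 measured ROP GTPase genes and neither of 2 proton pump genes passed (limma, adjusted p = 0.173 for ARAC1 and 0.103 for HA3, the smallest of each, which were also the only ones with an unadjusted p under 0.05).

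Ethylene synthesis had members that fell and 1 that rose. The hormone is made from ACC, which ACC synthases (ACS) produce and ACC oxidases (ACO) convert to ethylene. AT1G77330 (ACO5) was at 266, 245 and 493 CPM in WT and 56.8, 95 and 84.5 CPM in tmk1. ACO1 was at 24.5, 18.3 and 21.3 CPM and 5.91, 8.04 and 12.6 CPM, and ACS5 at 25.6, 28.9 and 42.6 CPM and 8.95, 13.9 and 14.8 CPM. These 3 were lower in every tmk1 library than in any WT library and fell by 2.03 (SE 0.29), 1.23 (SE 0.25) and 1.30 (SE 0.24), with limma's adjusted p = 0.0216, 0.0400 and 0.0338. ACS11, by contrast, was at 2.73, 2.19 and 2.82 CPM in WT and 9.73, 5.95 and 9.26 CPM in tmk1 and rose by 1.36 (SE 0.21; limma, adjusted p = 0.0256). They were 4 of 10 measured genes (40%, against 3.78% of all genes). ACO4 (EFE), at 284, 129.8 and 175 CPM in WT and 295, 167 and 258 CPM in tmk1, overlapped between groups and did not pass (limma, adjusted p = 0.562). None of the 10 passed without WT replicate 1, tmk1 replicate 1 or tmk1 replicate 3. In ethylene signalling 1 of 12 genes fell (1.72% of all genes did), the receptor gene ETR2, which ethylene is known to induce, from 60.7, 39.2 and 61.9 CPM to 29.4, 25.0 and 25.0 CPM (log2 fold change -0.97, SE 0.19; limma, adjusted p = 0.0375). HLS1, an acetyltransferase-like gene without which no hook forms, was at 21.8, 14.1 and 9.39 CPM and 10.2, 7.84 and 12.3 CPM, with overlapping groups (limma, adjusted p = 0.344).

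Of the other hook markers WAG2, a kinase gene that acts on PIN carriers in the hook, was at 37.9, 29.9 and 66.7 CPM in WT and 13.1, 32.3 and 21.6 CPM in tmk1, and PIF3, a factor of growth in darkness, at 117, 104 and 87.7 CPM and 87.6, 91.4 and 90.7 CPM. Neither passed (limma, adjusted p = 0.149 and 0.456), and both overlapped between groups. SAUR17 was thus the only 1 of 6 hook markers past the threshold. In the gibberellin list 1 of 21 genes fell, GA2, which encodes ent-kaurene synthase of the early pathway, by 0.59 (SE 0.13; limma, adjusted p = 0.0477), and GA2OX8 fell only with the block. Over all genes 1.72% fell and 2.06% rose, and with the block 3.94% fell. Of the 10 measured members of the cytokinin list HK5 fell from 11.5, 21.0 and 17.9 CPM to 4.78, 5.46 and 5.51 CPM (log2 fold change -1.48, SE 0.22; limma, adjusted p = 0.0227). HK5 is annotated as a histidine kinase, whereas the other members are response regulators. RR16, a type-A response regulator that cytokinin induces, rose from 2.36, 1.22 and 0.171 CPM to 4.95, 6.15 and 5.29 CPM (log2 fold change 1.65, SE 0.35; limma, adjusted p = 0.0442), and its lowest WT library held less than the floor of 3 reads. The 8 remaining members of that list did not pass. Among them ARR3, at 4.18, 5.6 and 8.36 CPM in WT and 1.56, 3.08 and 3.09 CPM in tmk1, fell with the block only (log2 fold change -0.97, SE 0.28; limma, adjusted p = 0.0877 and 0.0278). Of 13 brassinosteroid genes 0 passed (limma; 3 had an unadjusted p under 0.05), and ROT3, a cytochrome P450 of the pathway, at 16.0, 27.0 and 29.4 CPM and 32.3, 45.9 and 38.2 CPM, rose with the block only (limma, adjusted p = 0.127 and 0.0348).

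Light signalling had 4 of 18 measured genes past the threshold (22.2%, against 3.78% of all genes), 3 upward and 1 downward. PIF7, a basic helix-loop-helix factor of the shade response, was at 2.18, 2.35 and 2.3 CPM in WT and 9.47, 7.54 and 6.25 CPM in tmk1. HYH, a close relative of the photomorphogenesis factor HY5, was at 16.6, 29.2 and 18.0 CPM and 43.8, 52.2 and 58.3 CPM. PIF5 (PIL6) was at 71.1, 82.3 and 59.6 CPM and 135, 113 and 106 CPM. These genes were higher in every tmk1 library and rose by 1.40 (SE 0.19), 1.27 (SE 0.22) and 0.73 (SE 0.16), with limma's adjusted p = 0.0171, 0.0310 and 0.0462. PAR2, a shade-induced repressor of elongation, fell from 163, 166 and 179.9 CPM to 94.3, 95.7 and 97.1 CPM (log2 fold change -0.82, SE 0.11; limma, adjusted p = 0.0204). HY5 itself was at 199.5, 238 and 216 CPM and 239, 138 and 231 CPM and PHYA at 1100.1, 922 and 915 CPM and 1426, 909 and 1097 CPM, and neither passed (limma, adjusted p = 0.731 and 0.605). Without WT replicate 1, tmk1 replicate 1 or tmk1 replicate 3, 0 of the 18 passed. With the block 4 rose and 2 fell, where 4.74% and 3.94% of all genes did. ELIP2, at 20.9, 87.1 and 43.4 CPM and 109.8, 133 and 159 CPM, rose with the block only (log2 fold change 1.6, SE 0.43; limma, adjusted p = 0.0742 and 0.0209). PAR1 fell with the block only (log2 fold change -0.58, SE 0.16; limma, adjusted p = 0.0739 and 0.0388). The B-box gene BBX14, among the largest rises of the table, went from 33.2, 44.3 and 11.7 CPM to 162, 124 and 119 CPM (log2 fold change 2.32, SE 0.41; limma, adjusted p = 0.0324).

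Expansins loosen the wall without cutting it, and XTH enzymes remodel its xyloglucan. Of 33 measured members of both families 5 passed (15.2%, against 3.78% of all genes), and they went in both directions. Besides XTH5 and XTH6, EXPA9 was at 254, 191 and 301 CPM in WT and 58.7, 65.4 and 80.7 CPM in tmk1, and EXPA11 at 413, 387 and 506 CPM and 217, 232 and 266 CPM. Their groups were separate, and they fell by 1.84 (SE 0.19; limma, adjusted p = 0.0110) and 0.86 (SE 0.16; limma, adjusted p = 0.0338). EXPA10, the other member that rose, was at 37.6, 48.3 and 35.6 CPM and 63.2, 74.8 and 92.6 CPM (log2 fold change 0.90, SE 0.18; limma, adjusted p = 0.0377). The median of the family was -0.12, with 14 higher and 19 lower, and with the block, under which 8.68% of all genes passed, 4 rose and 4 fell. XTH4 was at 1421, 1689.6 and 2377 CPM and 1549.9, 2211 and 1822 CPM, which overlapped (limma, adjusted p = 0.940). Of 9 primary wall cellulose genes and 14 xylem genes 0 passed (limma; smallest adjusted p = 0.165 for CESA9 and 0.199 for XCP1, each list with 1 unadjusted p under 0.05).

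Tubulin genes other than TUA2 were mostly lower. Of 15 measured alpha- and beta-tubulin genes 13 were lower, the median being -0.32, and 1 fell (1.72% of all genes did), TUB1, from 552, 636 and 709 CPM to 233, 363 and 273 CPM (log2 fold change -1.14, SE 0.20; limma, adjusted p = 0.0315). The alpha-tubulin genes TUA4 and TUA6 were at 1587, 1552 and 1936 CPM and 1679, 1619 and 2101 CPM in WT, and at 936, 1337 and 1183 CPM and 1126, 1428 and 1398 CPM in tmk1. Their groups did not overlap, yet their log2 fold changes of -0.56 and -0.45 did not pass (limma, adjusted p = 0.159 and 0.233). The 8 measured reference genes, for comparison, had a median of -0.12, with 6 lower and 0 past the threshold (limma; 0 had an unadjusted p under 0.05).

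Zinc finger homeodomain (ZF-HD) factors and the related mini zinc fingers had 4 of 14 measured members past the threshold (28.6%, against 1.72% of all genes in this direction), all downward. This list too was chosen with earlier results of these data known, so the share is no test. ZFHD1 was at 6.55, 5.60 and 8.02 CPM in WT and 2.00, 1.59 and 2.65 CPM in tmk1. HB28 was at 50.8, 50.4 and 53.3 CPM and 21.5, 30.5 and 27.6 CPM. Both were clearly lower in all tmk1 libraries, at -1.33 (SE 0.20) and -0.95 (SE 0.15), with limma's adjusted p = 0.0256 for each. HB24 and MIF1, a mini zinc finger known to interfere with several hormone responses, fell by 0.90 (SE 0.17) and 0.88 (SE 0.19; limma, adjusted p = 0.0366 and 0.0475). Of the other 10 members 4 were lower and 6 higher, and 0 of the 14 passed without WT replicate 1, WT replicate 3, tmk1 replicate 1 or tmk1 replicate 3. The 9-library fit called ZFHD1 and HB28 (limma, adjusted p = 0.0422 and 0.0421).

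**Figure D4:**
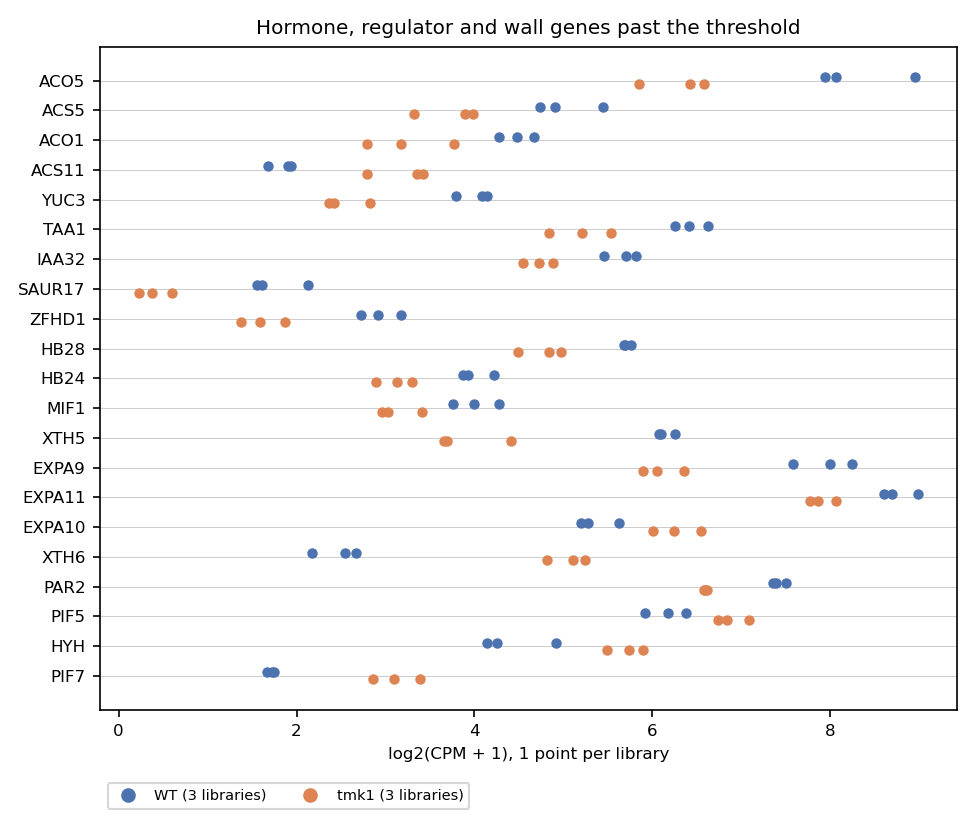
Level of hormone, regulator and wall genes that passed the threshold, as log2(CPM + 1) (horizontal axis), 1 point per library, with WT and tmk1 in different colours. ACO5, TAA1, YUC3, IAA32 and EXPA9 lie lower in all 3 tmk1 libraries, and XTH6, EXPA10, PIF7, HYH and ACS11 higher.

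Metabolic and stress lists had 1 or 2 members each past the threshold, where 3.78% of all genes passed. ICL, isocitrate lyase, an enzyme of the glyoxylate cycle through which seed oil becomes sugar, was at 72.5, 89.2 and 62.3 CPM in WT and 668, 219 and 722 CPM in tmk1, where replicate 2 was the lowest but still above WT (log2 fold change 2.66, SE 0.41; limma, adjusted p = 0.0256). It was the only 1 of 15 oil breakdown genes past the threshold, and MLS, its partner in the cycle, was at 19.8, 17.8 and 10.2 CPM and 19.6, 16.8 and 41.0 CPM (limma, adjusted p = 0.333). SAG21 and DIN2, genes known from senescence and darkness, showed the same pattern over replicates, at 938, 295 and 997 CPM and 37.5, 11.6 and 27.5 CPM in tmk1 against 166, 93.5 and 132 CPM and 7.09, 2.60 and 2.82 CPM in WT. They rose by 2.35 (SE 0.44) and 2.32 (SE 0.44), with limma's adjusted p = 0.0360 and 0.0366. TGG2, a myrosinase that breaks down glucosinolates, rose from 6.64, 4.71 and 3.24 CPM to 18.3, 18.1 and 16.2 CPM (log2 fold change 1.70, SE 0.22; limma, adjusted p = 0.0171). CYP79B3, which starts indolic glucosinolate synthesis, fell by 0.81 (SE 0.17; limma, adjusted p = 0.0419). These were 2 of 9 measured glucosinolate genes. Among 19 abscisic acid and dehydration genes RD20, a caleosin, fell from 41.3, 50.8 and 45.7 CPM to 14.1, 18.6 and 21.5 CPM (log2 fold change -1.32, SE 0.17; limma, adjusted p = 0.0171), and KIN2 rose by 0.99 (SE 0.21; limma, adjusted p = 0.0436). With the block 1 of these 19 rose and 3 fell, where 4.74% and 3.94% of all genes did.

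The remaining lists held 2 more calls, where 3.78% of all genes passed. TIFY7 (JAZ9), a repressor of jasmonate responses, rose from 21.6, 31.5 and 18.9 CPM to 62.5, 41.6 and 59.7 CPM (log2 fold change 1.16, SE 0.22; limma, adjusted p = 0.0366), the only 1 of 14 jasmonate genes, while JAZ1 fell with the block only. OPT3, a transporter that loads iron into the phloem, rose from 65.3, 55.9 and 45.5 CPM to 108, 109 and 95.4 CPM (log2 fold change 0.91, SE 0.15; limma, adjusted p = 0.0301), the only 1 of 8 iron genes. Flavonoid genes were higher for 9 of 11, with a median of 0.71 and 0 past the threshold (limma; 6 had an unadjusted p under 0.05). TT4, which encodes chalcone synthase, the entry enzyme of the pathway, varied with the replicate, at 4, 21.3 and 8.28 CPM in WT and 18.3, 107 and 41.1 CPM in tmk1. Replicate 2 was highest in both groups, and TT4 was higher in tmk1 by 2.13 (SE 0.67; limma, adjusted p = 0.108, and 7.48e-04 with the replicate block). With the block 3 flavonoid genes rose and 1 fell, where 4.74% and 3.94% of all genes did. Of 22 cell cycle genes 17 were lower, the median being -0.15 (0.01 without tmk1 replicate 1), and 0 passed (limma; 1 had an unadjusted p under 0.05). The heat shock (5 measured), defence (6) and clock (9) lists had 0 calls too (limma; 3, 2 and 1 had an unadjusted p under 0.05).

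Several of the largest changes lay outside the lists. MSRB7, a methionine sulfoxide reductase, fell from 31.6, 75.8 and 73.0 CPM to 5.74, 16.0 and 4.71 CPM (log2 fold change -2.72, SE 0.45; limma, adjusted p = 0.0290). GRF7 (AT5G53660), a growth-regulating transcription factor, fell from 48.0, 21.0 and 22.4 CPM to 6.17, 7.24 and 5.96 CPM (log2 fold change -1.98, SE 0.29; limma, adjusted p = 0.0224). WT replicates differed by more than 2-fold for both, and the groups still did not overlap. AT5G03545, annotated as expressed under phosphate starvation, fell from 213, 314 and 439.8 CPM to 64.7, 117 and 112 CPM (log2 fold change -1.70, SE 0.30; limma, adjusted p = 0.0327). AT5G39240, annotated as an UPBEAT-like transcription factor, AT3G23470, AT2G25130, the B3 factor gene REM1 and the ubiquitin ligase gene PUB18 fell by 1.65 to 2.26. AT5G18600, of the thioredoxin superfamily, rose from 6.73, 2.35 and 0.683 CPM to 38.8, 17.2 and 28.2 CPM (log2 fold change 2.97, SE 0.51; limma, adjusted p = 0.0315). AT5G48490, AT5G16030, AT1G60590 and AT4G19530, which have no symbol in the annotation, rose by 2.21 to 2.61. Called genes made up 3.11 to 4.39% of the tested genes on each of the 5 nuclear chromosomes.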

How the data were processed

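Hook RNA, 1 µg of it per library, went into a directional library kit, and the samples are biological triplicates, per the labels. The authors deposited CPM values, 1 column for each library. The submitters' processing notes name HISAT and HTSeq; which genome build, annotation and strand setting they used is not known here. Values were multiples of 1 read to within 0.01 of a read, which gave library totals. A separate check of the unit did not accept whole reads for every column, so the read totals and read counts given rest on these multiples alone. The 3 tmk1 and 3 WT libraries were fitted on log2(CPM + 1) with limma 3.58.1 in R 4.3.3 (lmFit, eBayes with trend, two-sided, threshold 0.05) without a filter. The fit was tested on simulated independent libraries without library effects, which does not cover the dependence of the calls on single libraries. An exact permutation test of 3 against 3 cannot go below p = 0.1 and was not used. Whether replicate numbers pair the samples is not known, so the block for them is an alternative only. Deviations of same-numbered libraries correlated across genes at 0.53, 0.13 and 0.14. Pairs of unlike number lay between -0.46 and 0.30, and WT replicate 3 correlated better with tmk1 replicate 2 (0.30) than with its own number.

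The members and lists were chosen with earlier results of these data known. The 46 lists held 815 genes, of which 666 were used, 141 were not analysed here and 8 were left out since the TAIR10.1 annotation, used only for names and neighbour order, gives other names. It held 16240 of the identifiers, 7212 with a symbol. Named genes are TMK1, its family members and IAA32, the called genes with a mean CPM of at least 3 whose changes were largest (up to 15 that rose and 15 that fell), up to 4 past the threshold per list or else the smallest p, and the hook markers. Genes passing without any 1 library, and others given as values, were named after their values were seen. The alternatives were a 9-library fit, a replicate block, 2 pseudocounts, 2 filters, median-of-ratios scaling, 2 variance priors and leaving out each library. Promoter motifs were not analysed here.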

Additional observations from a re-analysis of the deposited data

How the results depend on the processing

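TMK1 kept its direction and its call under all 15 alternatives. The counts of called genes moved with the libraries in the fit and with the block. All 9 libraries in 1 fit gave 52 genes (20 higher, 32 lower), and the replicate block 1422 (777 higher, 645 lower). Leaving out 1 library gave 14 to 1041 genes, of which 5 to 595 were higher and 9 to 446 lower. Without the mean-variance trend 217 were higher and 422 passed in all. Pseudocounts of 0.25 and 4 gave 579 and 673, the filters 622 and 554, and robust eBayes 642, while median-of-ratios scaling gave 739. The cause of these shifts was not tested. For the other 95 genes named by the rule, 1106 of the comparisons with an alternative kept direction and call, 292 lost the call, 12 gained it and 6 reversed direction, all 6 in 3 genes that never passed. These were AT2G01820, at 0.04 with median-of-ratios scaling and at -0.05 to 0.01 with 1 library left out (above 0 without tmk1 replicate 1), AT3G23750, at -0.07 to 0.15 (below 0 without WT replicate 1, WT replicate 3 or tmk1 replicate 2), and PIN3, at 0 after rounding without WT replicate 3 and up to 0.18 otherwise. The medians of lists and of all genes moved beyond the spread between replicates in 35 of 675 comparisons and changed sign in 16, over 10 lists. The block lost none of the 620 calls, and of the genes named by the rule it changed no call other than those given beside the genes and that of ATCG00430, the plastid-encoded gene with the smallest p. The 3 planned count models were not run, since a check of the unit did not accept whole reads for every column. With 3 libraries a group, small changes may be missed.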

Other observations

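The following genes outside the lists were named after their values were seen, and no list or pathway was tested with them. CAT2, the peroxisomal catalase (AT4G35090), was at 221, 282 and 100.4 CPM in WT and 952, 435 and 811 CPM in tmk1 (log2 fold change 1.91, SE 0.41; limma, adjusted p = 0.0450). GGT1 (AT1G23310), the glutamate:glyoxylate aminotransferase, was at 229, 299 and 128 CPM and 669, 531 and 629 CPM, and HPR, hydroxypyruvate reductase, at 115, 127 and 53.8 CPM and 309, 213 and 256 CPM. Both rose, by 1.55 (SE 0.29) and 1.46 (SE 0.31), with limma's adjusted p = 0.0339 and 0.0429. NIA2, a nitrate reductase, was at 371, 558 and 205 CPM and 1836, 818 and 1696 CPM, with tmk1 replicate 2 the lowest of its group (log2 fold change 1.97, SE 0.41; limma, adjusted p = 0.0421). Among transcription regulators, the AT-hook genes ESC and SOB3, the latter known as a repressor of hypocotyl elongation, fell by 1.44 (SE 0.17) and 1.36 (SE 0.20; limma, adjusted p = 0.0163 and 0.0222), and UPB1, a basic helix-loop-helix factor of root growth, fell by 1.44 (SE 0.17; limma, adjusted p = 0.0163).

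Of the called genes, 14 pairs of neighbouring protein-coding genes changed in the same direction, 12 upward and 2 downward. Neighbouring pairs among all measured genes were not counted, so the 14 are not read as clustering, which was not tested. They included TUA2 with AT1G50020, LHB1B2 with LHB1B1, SIG2 with NPQ1 (AT1G08550) and HB28 with AT3G50900. LHCB6 formed a run with AT1G15825 and AT1G15830, with log2 fold changes of 1.09, 1.16 and 1.42. How reads of adjacent genes were divided is not known.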
